A study of Homo sapiens with 9 samples.

Results

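The genes that encode subunits of RNA polymerase II itself were examined in peak lists of POLR2A, the largest subunit of that enzyme, mapped by chromatin immunoprecipitation and sequencing in HEK293T cells. HEK293T is an established human embryonic kidney line. The 10 genes were taken by name: POLR2A, POLR2B, POLR2C, POLR2D, POLR2E, POLR2F, POLR2G, POLR2H, POLR2I and POLR2L, out of 20046 protein-coding genes annotated in GENCODE version 44 (GRCh38). A peak was counted for a gene when its summit, the position of highest signal, lay within 1000 bp of one of the gene's transcript starts or inside the gene. Cells carried a control shRNA (genotype labelled wildtype), a U2AF1 knockdown or a DHX9 knockdown, with 2 immunoprecipitated samples and 1 input per condition. Each condition has 1 deposited list, of 2757, 1730 and 4443 peaks respectively, so presence, rank and fold enrichment have no replicate error, and no difference between lists could be tested. Where 3 values are given together they follow that order: control, U2AF1 knockdown, DHX9 knockdown. The knockdown efficiency was not analysed here. Peak names in the control list end in a suffix that reads as replicate 1, so that list may rest on 1 library.

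RNA polymerase II transcribes the protein-coding genes of the nucleus and many noncoding RNA genes. POLR2A and POLR2B form the catalytic cleft, and POLR2A carries the C-terminal repeat domain that is phosphorylated during the transcription cycle. POLR2C and POLR2L belong to the subassembly on which the core is built, POLR2D and POLR2G form a stalk beside the RNA exit channel, and POLR2I acts in start site choice and transcript cleavage. POLR2E, POLR2F, POLR2H and POLR2L are also built into RNA polymerases I and III. Polymerase II pauses shortly after initiation at many genes, so ChIP signal for it often collects just downstream of transcript starts. U2AF1 recognises the AG dinucleotide at the 3′ splice site during splicing, and DHX9 is a helicase that unwinds RNA and hybrids of RNA and DNA. R-loops, the subject of the series, are such hybrids with a displaced DNA strand, and they form more readily where the non-template strand is rich in G downstream of a start.

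The promoters of 5 subunit genes are shown to set genes with a peak throughout beside others that lacked one: POLR2A, POLR2C and POLR2L had a peak in every list, POLR2H in the control list alone and POLR2F in none. They are RefSeq sequences of GRCh38.p14, read 5′ to 3′ on the strand of the gene, from 150 bases before the transcript start to base 30 of the transcript, and capitals mark every match to the 7 short motifs searched. They lie at chr17:7484216-7484395 (plus strand), chr16:57462529-57462708 (plus), chr11:842500-842679 (minus), chr3:184361560-184361739 (plus) and chr22:37953549-37953728 (plus), in the order printed.
POLR2A: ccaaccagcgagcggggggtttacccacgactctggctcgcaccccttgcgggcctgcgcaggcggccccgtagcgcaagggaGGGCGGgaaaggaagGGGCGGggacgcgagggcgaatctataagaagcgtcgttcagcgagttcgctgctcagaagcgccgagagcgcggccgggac
POLR2C: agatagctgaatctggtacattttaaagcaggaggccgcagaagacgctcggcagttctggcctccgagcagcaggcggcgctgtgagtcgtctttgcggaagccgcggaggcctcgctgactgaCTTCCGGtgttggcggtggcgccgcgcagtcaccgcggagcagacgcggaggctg
POLR2L: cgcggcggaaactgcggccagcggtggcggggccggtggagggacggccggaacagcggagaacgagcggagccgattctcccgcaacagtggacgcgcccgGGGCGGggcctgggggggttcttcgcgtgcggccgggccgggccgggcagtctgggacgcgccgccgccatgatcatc
POLR2H: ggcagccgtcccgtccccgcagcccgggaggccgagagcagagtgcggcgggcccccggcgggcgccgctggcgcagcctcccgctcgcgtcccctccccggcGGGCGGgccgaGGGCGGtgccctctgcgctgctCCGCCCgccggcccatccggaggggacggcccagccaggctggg
POLR2F: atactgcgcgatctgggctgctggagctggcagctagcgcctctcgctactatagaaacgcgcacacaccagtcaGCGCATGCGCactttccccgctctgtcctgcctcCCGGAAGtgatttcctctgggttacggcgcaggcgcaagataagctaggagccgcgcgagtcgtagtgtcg

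Capitals in POLR2A, POLR2L and POLR2H are GC boxes, and those in POLR2C are an ETS site. Those in POLR2F are GCGCATGCGC, followed by an ETS site. GCGCATGCGC is a palindrome that holds 2 overlapping matches, on opposite strands, to GCGCATGC, a partial NRF1 site. These matches are therefore not 2 separate NRF1 sites. The ETS site of POLR2C and the last GC box of POLR2H lie on the other strand and so appear as their reverse complements. Of the 10 genes, 8 had a RefSeq promoter entry; POLR2G and POLR2I had none. In the full window from -250 to +50, with both strands searched, GGGCGG (GC box) was found in 6 of the 8 promoters and in 61.8% of 15345 protein-coding promoters. CCGGAAG (ETS site) was found in POLR2C, POLR2D and POLR2F, that is 3 of 8, and in 14.7% of all. GCGCATGC (partial NRF1 site) was found in POLR2F only, 1 of 8, against 4.39% of all. The other 4 motifs had 0 matches in the 8 promoters. The TATA box, read as TATAAA, occurred in 9.42% of all promoters and the CAAT box, read as CCAAT, in 36.7%. The YY1 site, read as AAGATGG, occurred in 6.56%, and the E-box, read as CACGTG, in 8.89%. A match is a description of letters and not evidence of binding.

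Most of the polymerase's own subunit genes had a peak in at least 1 list. The U2AF1 knockdown list, the shortest, held the fewest of them and also the smallest share of all protein-coding genes. With the lists cut to equal length, as described below, the fewest were under DHX9 knockdown. The counts include the peaks of POLR2B and POLR2H, which may belong to a divergent neighbour. They also include those of POLR2A, which cover a start of the divergent gene ZBTB4 as well. In the control list 7 of 10 genes had a peak, where 13.2% of all protein-coding genes did. In the U2AF1 knockdown list 3 of 10 had one, against 7.34% of all, and in the DHX9 knockdown list 7 of 10, against 22.2% of all. At least 1 list held a peak for 8 of 10 genes, against 26.4% of all, and every list held one for 3 of 10, against 4.34%. Expression was not measured in these lists, so the share among expressed genes is not known.

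**Figure D1:**
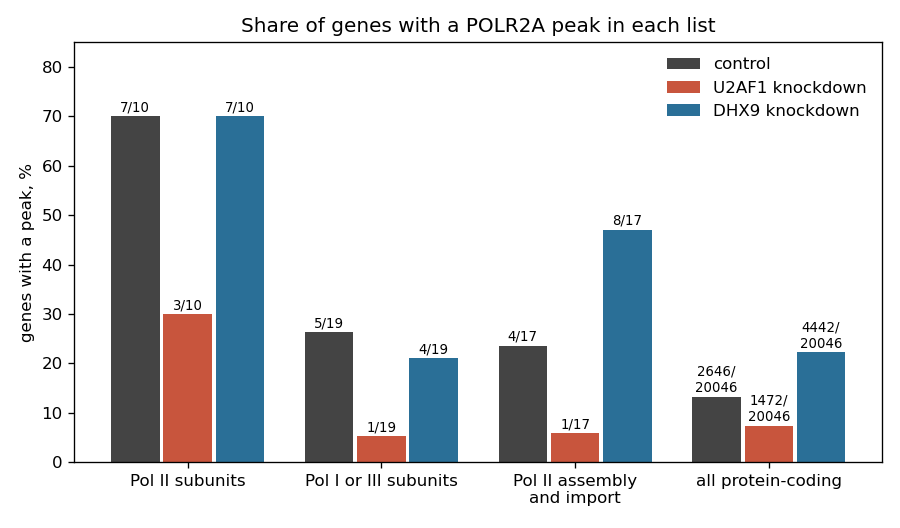
Share of genes with a peak in each list, in percent, for the 10 Pol II subunit genes, 2 other gene lists and all protein-coding genes, with counts above the bars. The subunit genes reach 7 of 10, 3 of 10 and 7 of 10.

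Presence split the genes into 5 patterns. POLR2A, POLR2C and POLR2L were in all lists. POLR2D, POLR2E and POLR2I were in the control and DHX9 knockdown lists and had no U2AF1 knockdown peak. POLR2H was in the control list alone, POLR2B in the DHX9 knockdown list alone, and POLR2F and POLR2G in none. Of the 7 genes with a control peak, 4 lacked a U2AF1 knockdown peak, near the 63.5% of all genes with a control peak that lacked one. Likewise 1 of the 7 lacked a DHX9 knockdown peak, against 23.9% of such genes. Of the 3 genes without a control peak, 1 had a DHX9 knockdown peak (14.0% of all such genes) and 0 had a U2AF1 knockdown peak (2.91%). With so few genes these counts do not separate the subunit genes from genes in general. When each list was cut to 1730 peaks by significance, POLR2A and POLR2L were the 2 subunit genes left in the DHX9 knockdown list. The U2AF1 knockdown list then held 3 and the control list 5. The place of the DHX9 knockdown list thus changed with this cut, while control stayed above U2AF1 knockdown.

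The 17 peaks all sat at transcript starts. Each gene had at most 1 peak per list, no summit was farther than 110 bp from an annotated start of its gene, and none lay in the gene body away from a start. All 12 pairs of peaks that a gene had in different lists shared bases. The absences were not near misses in position: the closest summit outside a gene was 8728 bp from POLR2E in the U2AF1 knockdown list. The others were at least 20595 bp away. Signal too weak to be listed cannot be seen in peak lists.

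**Figure D2:**
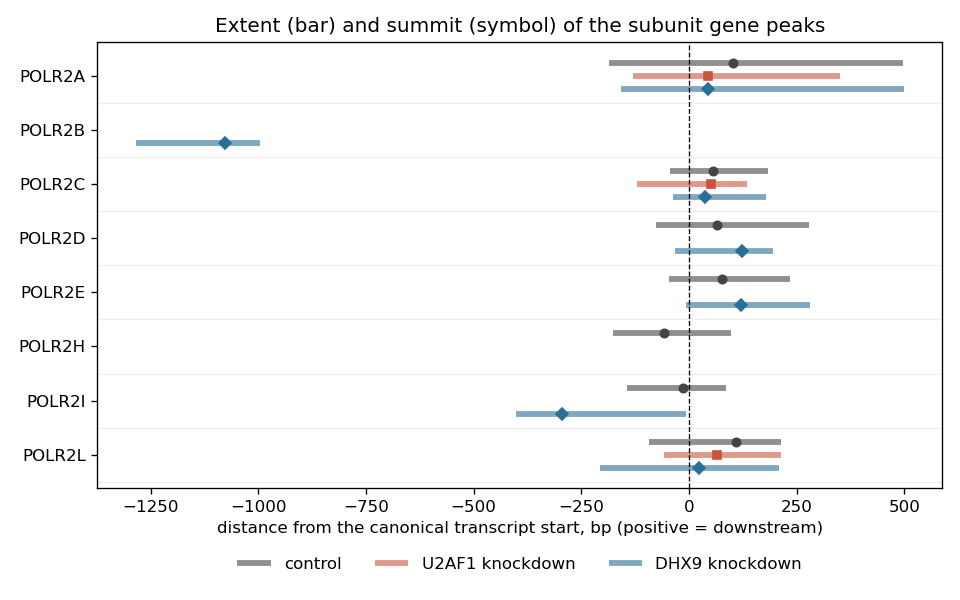
Extent (bars) and summit (symbols) of each peak, in bp from the start of the canonical transcript, with downstream positive, for the 8 genes with a peak. Most summits lie within 122 bp downstream of the start, while that of POLR2B lies at -1078 bp and that of POLR2I in the DHX9 knockdown list at -295 bp.

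POLR2A, the catalytic subunit and the protein that was immunoprecipitated, had the strongest and widest peak of the group in every list. The gene spans 7484366 to 7514616 on chromosome 17, plus strand. Its fold enrichment, the authors' ratio of signal over background, was 19.5 in control (rank 29), 8.43 under U2AF1 knockdown (rank 128) and 19.6 under DHX9 knockdown (rank 58). The rank put it in the top 1.05%, 7.40% and 1.31% of these lists, and the control value was 1.99% when peaks were ranked by −log10 p. Peak widths were 682, 481 and 656 bp, and the U2AF1 knockdown peak lay wholly inside the control peak.

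The summits of POLR2A were at 103, 43 and 45 bp downstream of its start, in the untranslated part of exon 1. Among the 870 genes with a peak in all lists, which removes the difference in list length, POLR2A ranked 12, 79 and 18. By either ranking its place in the U2AF1 knockdown list was lower than in the others, though still high. Every POLR2A peak also met the rule for ZBTB4, which is transcribed the other way. The summits were 146 to 206 bp from the nearest ZBTB4 start, farther than from that of POLR2A. That ZBTB4 start nevertheless lay inside each of the peaks. How the signal divides between POLR2A and ZBTB4 cannot be told from these peaks. Of 869 other genes in all 3 lists, those with the most similar ranks were ZBTB4, which shares the peaks, CLASP1 (ranks 58, 131 and 13) and ID2 (ranks 45, 100 and 133). The ranks of CLASP1 and ID2 differed from those of POLR2A by at most 1.05 and 1.69 percent of a list.

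The number of DNA fragments over a summit could be recovered in the knockdown lists from the fold enrichment and p-value of each peak, assuming the formulas of the peak caller MACS2, and shows how thin the data are. It came out as a whole number for 99.7% of peaks in both knockdown lists and for 0.544% in the control list, where it was not used. At POLR2A the U2AF1 knockdown summit had 44 fragments over a local background of 4.34, and the DHX9 knockdown summit 63 over 2.26. The 95% counting intervals of the fold enrichment were 6.17 to 11.2 and 15.2 to 25.0. Fragments were more and background lower under DHX9 knockdown, and the lists were not scaled to each other here. Intervals here are exact Poisson limits on the fragments that cover counting error only and hold the background fixed.

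POLR2B, the other large subunit of the cleft, had no control or U2AF1 knockdown peak. Its DHX9 knockdown peak, at 56977612 to 56977901 on chromosome 4, was 290 bp wide and had a fold enrichment of 5.89 (17 fragments over 2.06) and rank 1585. The summit lay at -1078 bp from the canonical start of POLR2B, 36 bp downstream of an alternative start and 212 bp from the start of the divergent gene NOA1. Which of these starts the signal belongs to cannot be told from a single peak.

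POLR2C and POLR2L, the subunits of the assembly platform, had peaks in every list. POLR2C (chromosome 16, 57462660 to 57472009, plus strand) had fold enrichments of 5.87 (rank 394), 5.88 (rank 424) and 4.48 (rank 3261). Its peaks were 228, 256 and 217 bp wide with summits at 56, 51 and 38 bp downstream of the canonical start. Its fold enrichment under DHX9 knockdown was below the median of genes with a peak there, 5.47. Its control rank depended on the measure, at 14.3% of the list by fold enrichment and 31.1% by −log10 p. POLR2L (chromosome 11, 837356 to 842529, minus strand) had fold enrichments of 5.43 (rank 546), 5.58 (rank 503) and 10.1 (rank 197), the last in the top 4.43% of its list by fold enrichment and the top 7.31% by −log10 p.

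POLR2C and POLR2L lay farthest apart under DHX9 knockdown. Among the 870 shared genes POLR2C ranked 252, 316 and 830 and POLR2L 327, 367 and 119. In the U2AF1 knockdown list their summits had 23 and 21 fragments, and in the DHX9 knockdown list 16 and 26. The DHX9 knockdown fold enrichment had a counting interval from 2.67 to 7.11 at POLR2C and from 6.72 to 14.6 at POLR2L. These intervals overlap slightly, but whether the genes differ was not tested. The POLR2L summits lay 110, 64 and 24 bp downstream of its 1 annotated start, and its peaks were 306, 272 and 416 bp wide. POLR2L peaks also met the rule for TSPAN4, whose nearest start was 307 to 393 bp from the summits.

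**Figure D3:**
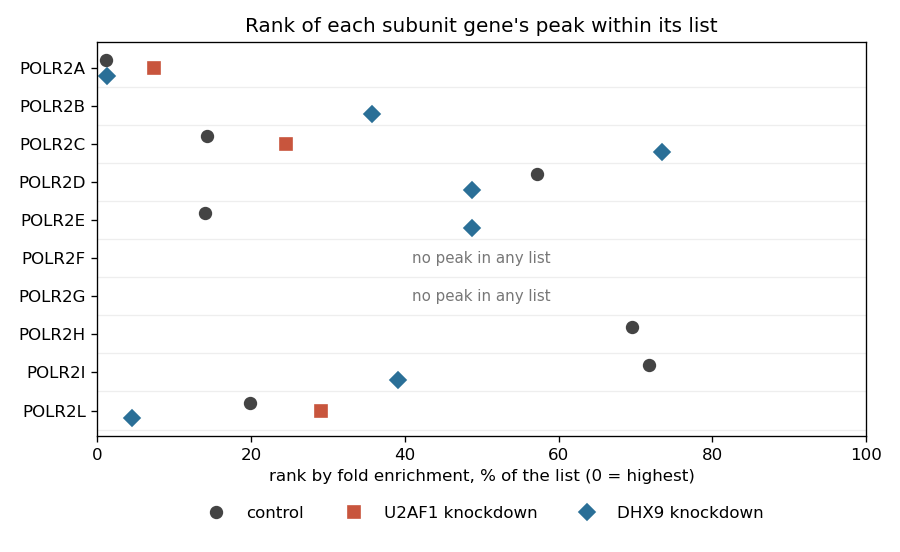
Rank of each gene's peak by fold enrichment, as a percent of its list (0 is the highest), for each condition. POLR2A lies near the top of all lists, and POLR2C lies at 14.3%, 24.5% and 73.4%.

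Among the other subunits shared with RNA polymerases I and III, POLR2E had 2 peaks, POLR2H 1 and POLR2F none. POLR2E (chromosome 19, 1086574 to 1095380, minus strand) had a control peak of fold enrichment 5.91 (rank 385) and a DHX9 knockdown peak of 5.32 (rank 2163), with widths of 281 and 287 bp and summits 76 and 121 bp downstream of its start. Its control rank was next to that of POLR2C, yet it had no U2AF1 knockdown peak. POLR2H had a control peak alone, at 184361534 to 184361807 on chromosome 3, with a width of 274 bp, a fold enrichment of 3.55, rank 1916 and a −log10 q of 2.86, the least significant of the 17 peaks. That summit lay 59 bp upstream of the POLR2H start and 1 bp from a start of the divergent gene CLCN2, so it is closer to that gene. The nearest summit of any list to POLR2F (chromosome 22, 37952607 to 38041915) was 46475 bp away.

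Of the stalk subunits, POLR2D had 2 peaks and POLR2G none. POLR2D (chromosome 2, 127843553 to 127858155, minus strand) had a fold enrichment of 3.91 (rank 1578) in the control list and 5.32 (rank 2163) in the DHX9 knockdown list. Its control rank was 57.2% of the list by fold enrichment and 35.5% by −log10 p. Its widths were 355 and 227 bp and its summits 65 and 122 bp downstream of the start, in coding sequence of exon 1. POLR2G (chromosome 11, 62761565 to 62766710) lay at least 20595 bp from the nearest summit. POLR2I, at 1505 bp the shortest gene of the group (chromosome 19, 36113709 to 36115213, minus strand), had a fold enrichment of 3.49 (rank 1979) in the control list and 5.70 (rank 1737) in the DHX9 knockdown list. Its peaks were 232 and 395 bp wide. The summits lay 282 bp apart, at -13 and -295 bp from the canonical start, and both peaks also met the rule for TBCB, whose nearest start was 551 and 269 bp from them. The same peak met the rule for a second protein-coding gene at 5 of the 8 genes with a peak, against 36.7% of all genes with a peak.

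In the DHX9 knockdown list the weaker peaks differed by very few fragments. Apart from POLR2A and POLR2L, the 5 subunit genes had 16 to 18 fragments at the summit over backgrounds of 2.06 to 2.80. POLR2D and POLR2E had the same fold enrichment, p-value and rank, and hence the same recovered 18 fragments over 2.57. These 5 genes ranked from 1585 to 3261. In all, 1005 peaks, or 22.7% of those with a recovered number, had 16 to 18 fragments, and they spanned ranks 742 to 4289. The counting interval of POLR2D, from 3.27 to 8.24, contains the fold enrichment of the other 4. Order among these genes was not detectable at this depth.

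**Figure D4:**
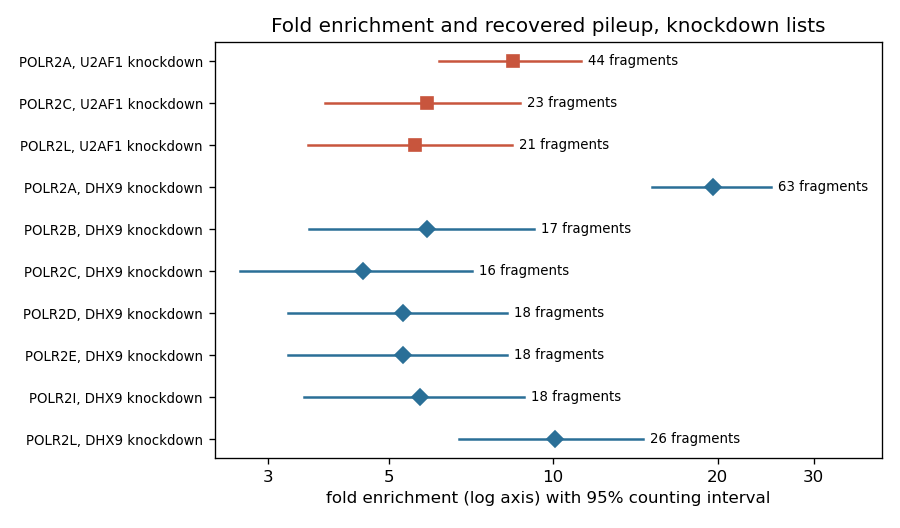
Fold enrichment on a log axis with its 95% counting interval for each subunit gene peak in the U2AF1 knockdown and DHX9 knockdown lists, with the recovered fragments at the summit. POLR2A in the DHX9 knockdown list stands apart with 63 fragments, and 5 genes in that list have 16 to 18.

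The smallest number of fragments in any listed peak was 10 under U2AF1 knockdown and 9 under DHX9 knockdown. The most common backgrounds were 2.05 and 1.68. A gene without a peak may still hold polymerase below such levels, so an absence is a signal that was not detectable at this depth. The U2AF1 knockdown list was the shorter of these lists, and its common background was the higher.

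Genes with the strongest control peaks were found more often in the knockdown lists. The share fell into the weaker peaks, though not at every step, and no further fall was seen among the weakest. The control list was divided by fold enrichment into 10 bins of equal numbers of peaks. Wilson intervals count genes as independent, although some share a peak, as POLR2A and ZBTB4 do, so they may be too narrow. POLR2A was in bin 1, the highest, in which 74.9% of genes (Wilson 95% interval 68.98 to 80.0) had a U2AF1 knockdown peak. POLR2C, POLR2E and POLR2L were in bin 2, at 56.9% (51.2 to 62.3), and 2 of these 3 had one. POLR2D, POLR2H and POLR2I were in bins 6, 7 and 8, at 24.2%, 24.4% and 24.3%, and 0 of these 3 had one. In the DHX9 knockdown list the shares were 94.0% and 85.95% in bins 1 and 2 and 71.9%, 69.97% and 66.2% in bins 6 to 8, and POLR2H was the only one of the 7 without a peak. Bins 3 to 5, which held no subunit gene, were at 38.1%, 31.5% and 34.0% for U2AF1 knockdown. For DHX9 knockdown they were at 77.2%, 77.5% and 74.0%. Bins 9 and 10, also without one, were at 28.1% and 25.4% for U2AF1 knockdown and at 70.6% and 74.6% for DHX9 knockdown. These shares were no lower than in bin 8 but rested on 231 and 67 genes. All of their intervals overlapped that of bin 8 in the same list.

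**Figure D5:**
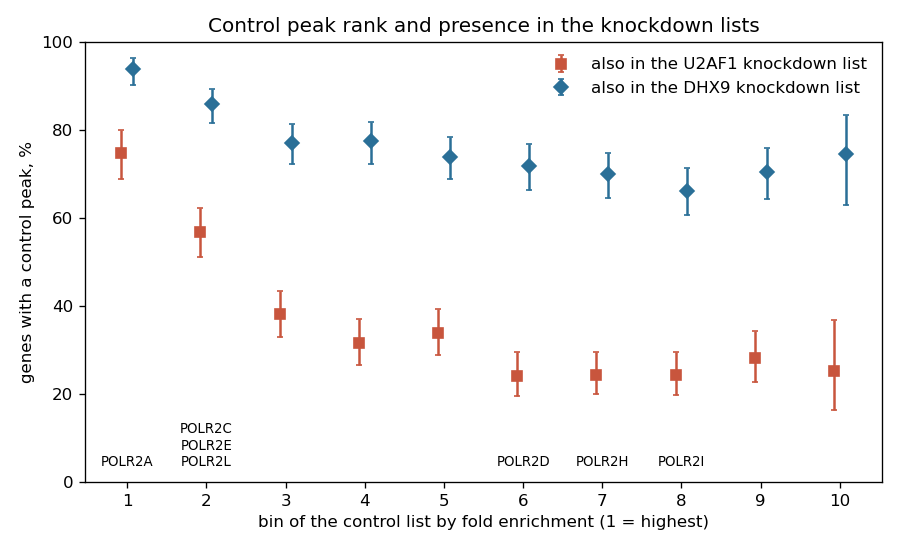
Percent of genes with a control peak that also had a peak in the U2AF1 knockdown or DHX9 knockdown list, by bin of the control list (bin 1 has the highest fold enrichment), with Wilson 95% intervals and the subunit genes named at their bin. For U2AF1 knockdown the share is 74.9% in bin 1 and 24.2% in bin 6.

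Strength, width and position of the subunit gene peaks can be set beside those of all genes with a peak. In the control list 4 of 7 were above the median fold enrichment of all genes with a peak (4.26), under U2AF1 knockdown 3 of 3 (5.01) and under DHX9 knockdown 4 of 7 (5.47). Their median width was 281, 272 and 290 bp, against 324, 281 and 328.5 bp for all genes with a peak. Summits were downstream of the canonical start in 5 of 7, 3 of 3 and 5 of 7 genes, against 64.5%, 69.9% and 64.3% of all genes with a peak. Their median widths were thus the smaller in each list, and no spread between replicates exists to test that.

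Base composition around the starts varied widely among the 8 genes with a promoter entry. The G over C skew, (G - C)/(G + C) on the coding strand over 500 bases from the start, was -0.084 at POLR2A, at percentile 13.5 of protein-coding promoters, so the gene with the strongest peak had more C than G there. It was 0.25 at POLR2E and 0.27 at POLR2F, at percentiles 94.2 and 95.3. POLR2B, POLR2D and POLR2H were at 0.12, 0.13 and 0.16. POLR2C, at 0.036, and POLR2L, at 0.067, were near the median of all promoters, 0.056. GC content over 500 bases on each side ranged from 49.4% at POLR2B to 72.8% at POLR2L.

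Smaller shares of the related genes had a peak in each list, a difference that was not tested. Of 19 genes for subunits of RNA polymerase I or III, 5, 1 and 4 had a peak in these lists, and 13 had none. Of these, POLR3D alone was in every list, with ranks 107, 579 and 1389. Its control fold enrichment, 9.77, was above that of every polymerase II subunit gene examined except POLR2A. Of all protein-coding genes, 13.2%, 7.34% and 22.2% had a peak. Of 17 genes for factors that assemble polymerase II or bring it into the nucleus, 4, 1 and 8 were in these lists and 9 in none. RPAP2, a phosphatase of the C-terminal repeat domain that also acts in polymerase import, was the one such gene in every list, with ranks 2151, 560 and 3993. Among 4 further polymerase II subunit genes and their copies, 1, 1 and 2 had a peak in these lists. POLR2J3 had a peak in every list, of rank 2110, 1313 and 3066, but it has near-identical copies, so the origin of its reads is uncertain.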

How the data were processed

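Peak lists of POLR2A ChIP-seq were used, 1 per condition, each assigned by the labels to both ChIP samples of that condition. The 3 inputs have no list of their own, and whether they entered the deposited values as background is not known. Per the submitters' processing notes Bowtie2 2.4.5, MACS2 2.2.7.1, deepTools 3.5.1 and hg38 were used, with no settings given. The deposited fold enrichment is the authors' ratio over a background not stated in the sources used here, and the deposited significance is −log10 of the p-value and of the q-value. The deposited score, 10 times −log10 q cut to a whole number, was not used. All 8930 peaks lay within the GRCh38 sequences.

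Peaks were assigned to genes by summit and ranked by fold enrichment within each list. The highest peak stood for a gene. Fragments at a summit were solved from fold and p-value, assuming MACS2's Poisson test with 1 added to signal and background, and accepted within 0.001 in −log10 p. Depth of the libraries is unknown. No test across conditions was possible, and intervals are Poisson or Wilson at 95%. The working of the assignment rule was checked on simulated peaks, which cannot show to which gene a shared peak belongs. Python 3.11.15, pandas 2.3.3, scipy 1.17.1 and pysam 0.24.0 were used. All 10 genes are named; the genes and lists were chosen with earlier results of these data known. Of the other gene lists, those with a peak in every list could be named, at most 3 per gene list by their worst rank, and so could the 3 genes ranked most like POLR2A and neighbours that share a peak. Alternatives were other start windows, summit or overlap rules, a −log10 q of at least 5, equal list lengths and other rankings.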

Additional observations from a re-analysis of the deposited data

How the results depend on the processing

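Changing the start window to 500 or 2000 bp, dropping gene bodies, or counting any overlap changed none of the numbers of subunit genes with a peak. Nor did using the canonical start in place of all starts, with gene bodies still counted. Under that setting the DHX9 knockdown peak of POLR2B, at -1078 bp from the canonical start, counted only because its summit lay inside the gene. Cutting each list to 1730 peaks by −log10 p left 2 subunit genes in the DHX9 knockdown list, so that 3 genes with a control peak lacked one there and 0 were gained, while 2 genes with a control peak lacked a U2AF1 knockdown peak. The median peak width in the DHX9 knockdown list was then 536 bp. By construction this setting removes weak peaks from the longer lists. The median rank of the subunit genes, 19.8%, 24.5% and 39.1% for control, U2AF1 knockdown and DHX9 knockdown, was 22.8% and 7.37% for control and DHX9 knockdown at equal length. With a −log10 q of at least 5 it was 23.9%, 41.1% and 58.4%, and ranked by −log10 p it was 31.1%, 28.8% and 42.2%. The equal-length DHX9 knockdown median rests on 2 genes. The cause of the other shifts was not tested. Of the alternative values of these summaries, 94 stayed within their interval, the spread among genes or 1.5 times a count, and 13 moved. Of the values for single genes, 117 stayed and 43 moved, among them the ranks of most genes when −log10 p replaced fold enrichment. Ranks among genes in all lists were added after the data were seen. No paired analysis was possible because a single list exists per condition, and for the same reason no replicate could be left out.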
